A study of Mus musculus with 8 samples.

Results

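The Serpina3 protease inhibitor cluster is a run of related genes on mouse chromosome 12, here the 9 genes Serpina3c, Serpina3f, Serpina3g, Serpina3h, Serpina3i, Serpina3j, Serpina3k, Serpina3m and Serpina3n, found by symbol among the 56748 genes of the count table. The set was chosen by measured values of this comparison, because Serpina3j was higher in every NPY-tet library than in any wild-type library. Differences between the genotypes in these genes are therefore given as descriptions, with a standard error (SE) and no p-value. RNA came from whole skin of male mice killed at 35 weeks of age, 5 wild-type (NPY +/+) and 3 NPY-tet (NPY tet/tet), which were siblings from strain B6;129S4-Npytm2Rpa/J. The NPY tet/tet mice carry on both copies of Npy a tetracycline-regulated allele that raises the output of neuropeptide Y, which sympathetic nerves release, whereas the wild-type mice lack it, and neither group received a treatment. The study's title concerns inflammation and fibrosis of skin under excess neuropeptide Y. Each library is 1 mouse.

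Serpins are protease inhibitors that act once. An exposed stretch near the end of the protein, the reactive centre loop, is offered to a protease as bait, and the cleaved inhibitor traps the enzyme. Humans have a single gene in this place, SERPINA3, which encodes alpha-1-antichymotrypsin, an acute phase protein made in liver and in inflamed tissue, whereas mice have a multigene cluster whose members differ most in that loop. Among them Serpina3n is a secreted inhibitor of granzyme B and leukocyte elastase, Serpina3g an intracellular inhibitor of lysosomal cysteine proteases, and Serpina3k a kallikrein-binding protein of liver and plasma. Serpina3h is annotated as a transcribed pseudogene and the other 8 members as protein coding.

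The loop is shown because its letters set which proteases a serpin can trap and because the members differ there. The sequences below are the coding strand, 5′ to 3′, of the loop of Serpina3n (chr12:104413448-104413537, plus strand, exon 5 of 5), of Serpina3j (chr12:104319686-104319775, plus strand, exon 4 of 4), of Serpina3c (chr12:104147307-104147387, minus strand, exon 5 of 5) and of Serpina3g (chr12:104241072-104241161, plus strand, exon 5 of 5). They come from the GENCODE M21 transcripts on GRCm38. Capitals mark the variable codons, and lower case the hinge before them and the start of the strand after them.
Serpina3n: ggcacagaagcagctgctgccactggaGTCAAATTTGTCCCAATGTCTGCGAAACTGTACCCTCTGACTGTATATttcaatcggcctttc
Serpina3j: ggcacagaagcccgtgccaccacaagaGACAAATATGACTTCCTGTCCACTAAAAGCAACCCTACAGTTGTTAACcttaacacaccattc
Serpina3c: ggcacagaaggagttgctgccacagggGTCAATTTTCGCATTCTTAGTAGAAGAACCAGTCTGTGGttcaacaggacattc
Serpina3g: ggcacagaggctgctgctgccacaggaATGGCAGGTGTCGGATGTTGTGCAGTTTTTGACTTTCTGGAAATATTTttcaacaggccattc
Over the whole coding sequence Serpina3j matched Serpina3n at 83.2% of aligned bases, but in the capital stretch at 54.2%. The capital stretch of Serpina3c matched that of Serpina3n at 51.3% against 87.0% over the coding sequence, and that of Serpina3g at 45.8% against 86.3%. The 8 coding members carried 13 to 17 variable codons, so the stretches were aligned codon by codon with gaps. Across the 7 comparisons with Serpina3n the variable stretch matched at 45.8% (Serpina3g) to 62.5% (Serpina3i) of paired bases, and the coding sequence at 83.2% to 87.0%. Serpina3h has no annotated coding sequence and thus no loop to show.

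Whole transcripts were alike enough that short reads could fall on more than 1 member. The closest of the 36 pairs were Serpina3k and Serpina3m, with 91.3% identical bases. Serpina3h matched Serpina3i at 90.7%, Serpina3g at 90.4% and Serpina3f at 90.3%. Serpina3j stood farthest from the rest, at 77.9% (Serpina3k) to 81.3% (Serpina3n). Of all 50-base windows of the longest transcript, 96.9% were found in the transcripts of no other mouse gene for Serpina3j, 95.7% for Serpina3c, 93.1% for Serpina3n and 75.6% for Serpina3h. At 100 bases these shares were 100% for Serpina3j and Serpina3c, and 93.9% to 99.8% for the other 7. The length of the sequenced reads is not given in the sources used here. The exons of Serpina3k and Serpina3m, both on the plus strand, overlap by 60 bases. Counts of Serpina3g, Serpina3h, Serpina3i, Serpina3f, Serpina3k and Serpina3m are for these reasons less certain than those of Serpina3j, Serpina3c and Serpina3n. The libraries do not keep strand, so antisense reads cannot be told apart for any member.

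Npy itself separated the groups, with 0.237 ± 0.148 CPM (counts scaled to library size) in wild-type skin (SD, n = 5) and 308 ± 11.6 in NPY-tet skin (SD, n = 3; log2 fold change 10.37, SE 0.28, adjusted p = 3.60e-09, edgeR quasi-likelihood test). It was the 1 gene called among 18495 tested. Libraries held 31370433 to 47495565 counts. Ribosomal RNA genes took 6.54% to 8.13% of counts in wild-type mice 1, 2, 3 and 5 and NPY-tet mouse 1 (rRNA-rich), and 0.0398% to 0.0759% in wild-type mouse 4 and NPY-tet mice 2 and 3 (rRNA-poor). The log2 fold changes of single members and the list medians below are also given within each of these library sets. Values of other Serpina3 symbols and neighbours, and the median over the members, are given for all libraries together only. In whole skin, fewer cells of a type and less RNA per cell cannot be told apart.

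All 9 members passed the filter on low counts. Compared per length, as the deposited FPKM (fragments scaled to gene length and library size), Serpina3n had the highest level in wild-type skin at 97.1 ± 16.3 (SD, n = 5). Serpina3c followed at 40.7 ± 5.64, Serpina3h at 18.5 ± 4.13 and Serpina3j at 13.3 ± 1.67. Serpina3g, Serpina3m and Serpina3i lay together at 2.89, 2.81 and 2.65 FPKM, and Serpina3f and Serpina3k were lowest at 0.550 and 0.187. The steps from Serpina3n to Serpina3c, from Serpina3c to Serpina3h, from Serpina3j to Serpina3g and from Serpina3i to Serpina3f held in 5 of 5 wild-type mice with no overlap of their ranges. The ranges of Serpina3h and Serpina3j, of Serpina3g, Serpina3m and Serpina3i, and of Serpina3f and Serpina3k overlapped. In NPY-tet skin Serpina3j, at 41.7 ± 22.0 FPKM (SD, n = 3), had a higher mean than Serpina3c (31.4 ± 13.1) and Serpina3h (31.8 ± 6.52). By FPKM Serpina3h stayed above Serpina3j in 1 of 3 NPY-tet mice, against 4 of 5 wild-type mice. The FPKM of Serpina3h rest on a gene length of 3572 bases, against 1719 to 2290 for the other members, while its longest transcript has 1239 bases. In CPM, which are not divided by length, Serpina3h kept the higher mean in NPY-tet skin, at 115 against 90.9 for Serpina3j. Its place among the members by FPKM thus depends on that length.

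**Figure D1:**
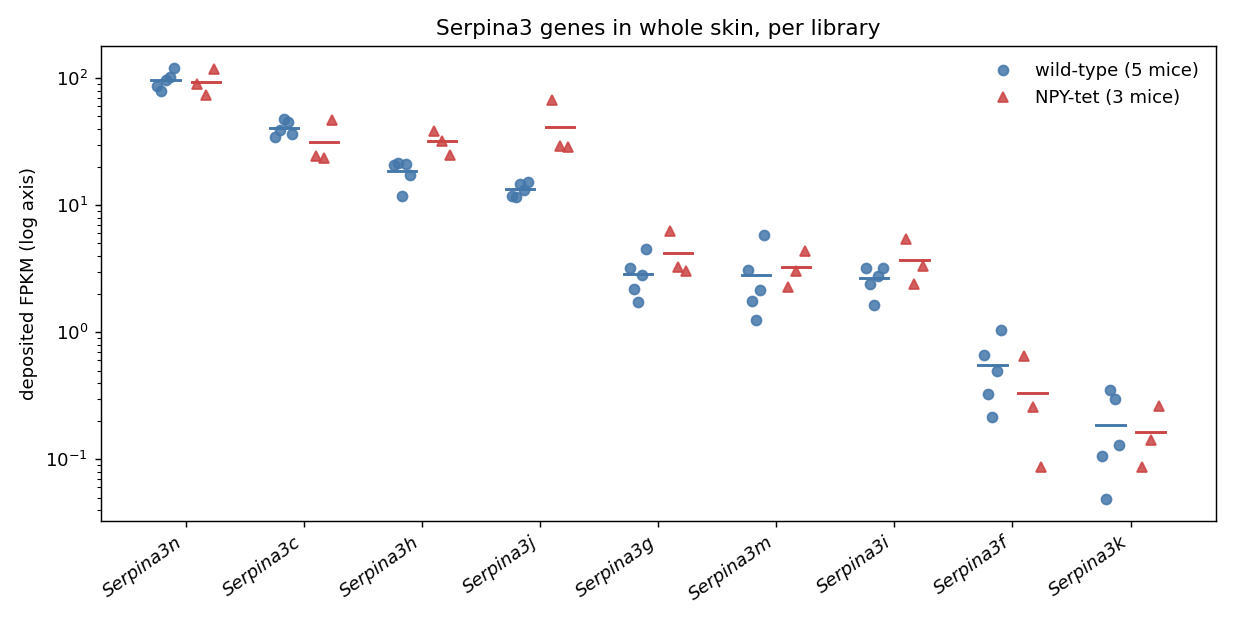
Deposited FPKM of the 9 Serpina3 genes (log axis) in each of 5 wild-type libraries (circles) and 3 NPY-tet libraries (triangles), with horizontal bars at the group means. Serpina3n is highest at 97.1 FPKM in wild-type skin, and the triangles of Serpina3j and Serpina3h lie above all their circles.

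Serpina3j, the member on which the set was chosen, had 26.0, 25.4, 32.1, 28.6 and 33.2 CPM in wild-type mice 1 to 5 and 146, 64.3 and 62.1 CPM in NPY-tet mice 1 to 3. The groups did not overlap, NPY-tet mouse 1 was far above its fellows, and the lowest NPY-tet value was above the highest wild-type one. Means were 29.1 ± 3.52 and 90.9 ± 48.0 CPM, a ratio of 3.13 and a log2 fold change of 1.64 (SE 0.26). Without NPY-tet mouse 1 the log2 fold change was 1.13. It was 2.35 among the rRNA-rich libraries, where that mouse is the single NPY-tet animal, and 1.13 among the rRNA-poor ones, where wild-type mouse 4 is the single control. Within wild-type skin Serpina3j varied least of the members, with a coefficient of variation of 12.1%, and within NPY-tet skin it varied by 52.8%.

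Serpina3h had 76.3, 77.6, 42.5, 75.9 and 62.1 CPM in wild-type mice 1 to 5 and 138, 116 and 90.5 CPM in NPY-tet mice 1 to 3. Here too the groups did not overlap, with wild-type mouse 3 lowest and NPY-tet mouse 1 highest. Means were 66.9 ± 15.03 and 115 ± 23.7 CPM, a ratio of 1.72 and a log2 fold change of 0.78 (SE 0.20). Among the rRNA-rich libraries the log2 fold change was 1.11 and among the rRNA-poor ones 0.43.

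Serpina3g and Serpina3i were higher in NPY-tet mouse 1 than in any other library. Serpina3g had 6.88, 4.66, 3.69, 5.94 and 9.63 CPM in wild-type mice 1 to 5 and 13.4, 6.99 and 6.46 CPM in NPY-tet mice 1 to 3. Serpina3i had 7.23, 5.42, 3.72, 6.24 and 7.22 CPM in the wild-type mice and 12.2, 5.42 and 7.47 CPM in the NPY-tet mice. The other two NPY-tet mice lay within the wild-type range for Serpina3g, and for Serpina3i NPY-tet mouse 3 lay just above it. The log2 fold changes were 0.54 (SE 0.33) for Serpina3g and 0.49 (SE 0.28) for Serpina3i. Without NPY-tet mouse 1 they were 0.13 and 0.11, so this library decided their size. Among the rRNA-rich libraries they were 1.13 and 1.07, and among the rRNA-poor ones 0.17 and 0.04.

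Serpina3c, a secreted serpin also made by fat cells, had 78.5, 87.3, 107, 102 and 81.4 CPM in wild-type mice 1 to 5 and 54.3, 52.4 and 104 CPM in NPY-tet mice 1 to 3. NPY-tet mice 1 and 2 were below every wild-type mouse and NPY-tet mouse 3 was near the top of the wild-type range. The log2 fold change was -0.38 (SE 0.22). It was -0.77 without NPY-tet mouse 3, -0.22 without NPY-tet mouse 1 and -0.20 without NPY-tet mouse 2, and -0.68 among the rRNA-rich and -0.39 among the rRNA-poor libraries. The summed level of the 7 white adipocyte markers examined was 3386, 2533 and 6094 CPM in NPY-tet mice 1 to 3 and 4170 to 7299 CPM in wild-type mice, so that it too was below every wild-type library in NPY-tet mice 1 and 2 alone. All 7 markers were detected. The part of fat content in the Serpina3c values was not tested.

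Serpina3n, the most abundant member, had 183, 164, 201, 213 and 252 CPM in wild-type mice 1 to 5 and 188, 155 and 245 CPM in NPY-tet mice 1 to 3. The groups overlapped almost completely. Means were 203 ± 33.2 and 196 ± 45.5 CPM, and the log2 fold change of -0.05 (SE 0.18) turned its sign in 4 of 19 alternative settings, among them without wild-type mouse 5 (0.04) and without NPY-tet mouse 2 (0.09). It was -0.07 among the rRNA-rich and -0.10 among the rRNA-poor libraries. Serpina3m had 2.18 to 9.999 CPM in wild-type mice, with a median of 3.74, and 3.97, 5.34 and 7.64 CPM in NPY-tet mice. Its log2 fold change was 0.21 (SE 0.45), with overlapping groups, and it was -0.07 without NPY-tet mouse 3 and 0.65 without wild-type mouse 5. Among the rRNA-rich libraries it was -0.36 and among the rRNA-poor ones 0.78.

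Serpina3f and Serpina3k had few counts. Serpina3f had 49, 30, 15, 57 and 72 counts in wild-type mice 1 to 5 and 59, 22 and 7 counts in NPY-tet mice 1 to 3, a log2 fold change of -0.71 (SE 0.64). Serpina3k had 7, 4, 22, 31 and 8 counts in the wild-type mice and 7, 11 and 19 in the NPY-tet mice, a log2 fold change of -0.19 (SE 0.68). Both groups overlapped for both genes. The Serpina3f value was -1.65 without NPY-tet mouse 1, -0.26 without NPY-tet mouse 3 and -0.35 without wild-type mouse 5, and it was 0.24 among the rRNA-rich and -1.52 among the rRNA-poor libraries. For Serpina3k the sign held in 14 of 19 alternative settings and turned without wild-type mouse 3 (0.14), wild-type mouse 4 (0.06) or NPY-tet mouse 1 (0.12). Its value was -0.84 among the rRNA-rich and -0.56 among the rRNA-poor libraries.

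The fitted differences ran from -0.71 (Serpina3f) to 1.64 (Serpina3j) along the cluster, which spans 267948 bases (chr12:104112641-104380588, mm39) from Serpina3c, the single member on the minus strand, to Serpina3n. Of the 9 members 5 were fitted higher and 4 lower in NPY-tet skin, with a median log2 fold change of 0.21 beside 0.0041 over all tested genes. The members fitted highest, Serpina3g, Serpina3h, Serpina3i and Serpina3j, stand next to each other, between Serpina3f and Serpina3k. The other Serpina3 symbols, 5 in all, held 3 tested genes. Of these Serpina3b, which lies beyond Serpina3c, had 72.4 ± 7.55 and 109 ± 37.2 CPM in the wild-type and NPY-tet groups, a log2 fold change of 0.59 (SE 0.20, adjusted p = 0.724, edgeR). The pseudogenes Serpina3e-ps and Serpina3d-ps, which lie inside the cluster, had log2 fold changes of 1.05 (SE 0.44, adjusted p = 0.795, edgeR) and 0.81 (SE 0.41, adjusted p = 0.795, edgeR), and Serpina3d-ps, with 11 to 27 counts, was higher in every NPY-tet library than in any wild-type one. Of 15 tested non-members within 500 kb of the cluster 0 were called, and their median log2 fold change was 0.016. At an unadjusted p under 0.05 by edgeR stood 3 of them, against 5.98% of all tested genes. These were Gm37496, Serpina3b and Serpina3e-ps, all fitted higher. Serpina3b and Serpina3e-ps share 50-base windows with members. Serpina3b in NPY-tet mouse 1 (66.9 CPM) lay within the wild-type range (62.5 to 81.7 CPM).

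**Figure D2:**
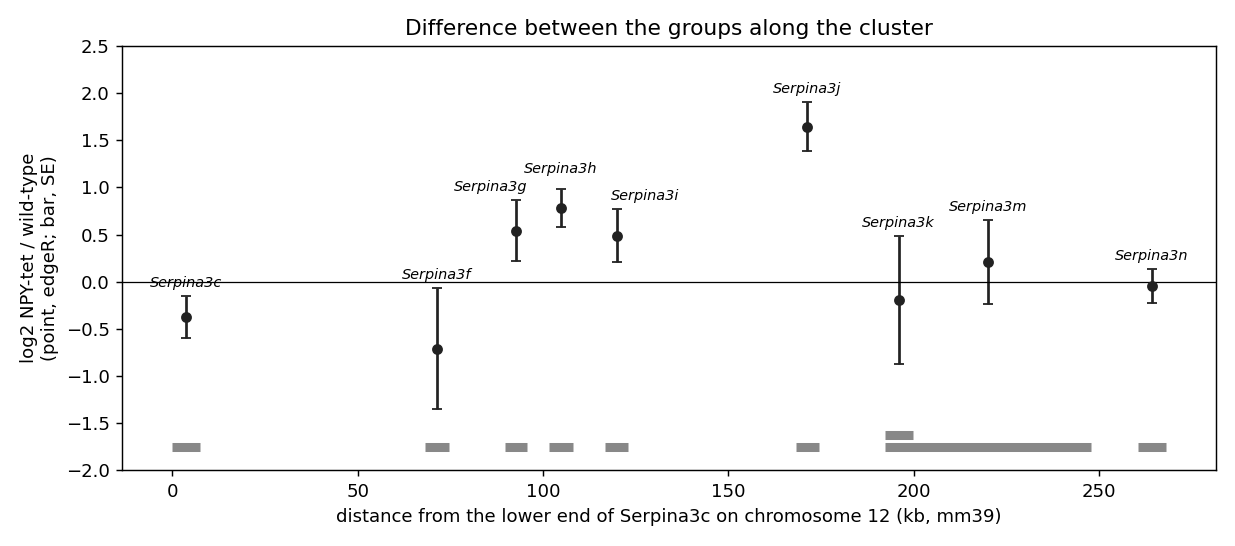
Log2 fold change of NPY-tet over wild-type (points; bars, SE; 5 and 3 mice) for each member at its place in the cluster, in kb from the lower end of Serpina3c on mm39, with grey bars for the gene bodies. Serpina3j stands at 1.64 and its neighbours Serpina3g, Serpina3h and Serpina3i at 0.54, 0.78 and 0.49, whereas Serpina3n, at the far end, stands at -0.05.

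Counts of members against all tested genes are as follows, and since this contrast chose the set, nothing is read from them. By edgeR 0 of 9 members passed an adjusted p of 0.05, against 0.00541% of tested genes. At an unadjusted p under 0.05 stood 2 members, Serpina3j and Serpina3h, against 5.98% of genes. The same 2 were higher in all NPY-tet libraries without overlap, against 1.81% of genes, and 0 were lower in all of them, against 1.98%. DESeq2 called 1 member, Serpina3j, and 0.368% of genes. Serpina3j was also the 1 member called in a fit with a term for ribosomal RNA content, against 0.0595% of genes. Within the rRNA-rich and rRNA-poor libraries, where 1 group is a single mouse, it was again the 1 member called, against 1.66% and 1.17% of genes. Limma-voom called 0 members and 0.0162% of genes, and limma on log2 FPKM called 0 members and 0.0108% of genes.

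The composition of the Serpina3 signal moved with Serpina3j. Its share of the summed FPKM of the 9 members was 6.92% to 8.40% in the wild-type mice and 28.7%, 17.5% and 12.5% in NPY-tet mice 1 to 3. Serpina3n took 54.1 ± 3.36% in wild-type skin (SD, n = 5) and 44.6 ± 6.51% in NPY-tet skin (SD, n = 3). Serpina3c took 22.9% and 14.9%, and Serpina3h 10.5% and 15.5%. The summed level was 179 ± 19.5 FPKM against 210 ± 36.6 FPKM in NPY-tet skin, and without Serpina3j it was 165 ± 18.2 and 169 ± 30.7 FPKM. For each unit of Serpina3n, Serpina3j stood at 0.126 to 0.153 in wild-type mice and at 0.747, 0.397 and 0.243 in NPY-tet mice 1 to 3, a ratio within each library that no scaling between libraries can alter.

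**Figure D3:**
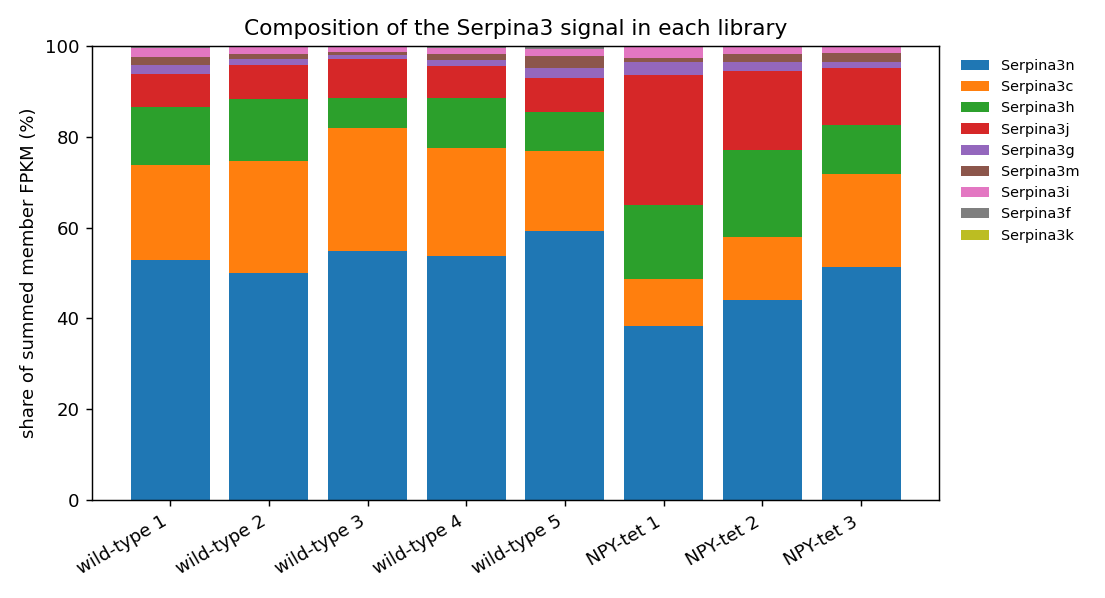
Share of each member in the summed FPKM of the 9 Serpina3 genes, in percent, for each of the 5 wild-type and 3 NPY-tet libraries. The Serpina3j band is 6.92% to 8.40% in wild-type libraries and 12.5% to 28.7% in NPY-tet libraries.

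Across the 8 libraries the members fell into patterns of their own, given here as correlations of log2 CPM that describe these libraries and carry no test, since points share genotype and depth. Serpina3g and Serpina3i were closest (Pearson r = 0.909), a pair with similar transcripts. Serpina3h followed Serpina3j (r = 0.751) and Serpina3i (r = 0.715). Serpina3c ran opposite to Serpina3h (r = -0.758), Serpina3g (r = -0.668) and Serpina3j (r = -0.641).

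Among all 14807 eligible genes, the one most like Serpina3j over the 8 libraries was Ctla2a, which encodes an inhibitor of cysteine proteases built like a cathepsin propeptide. Ctla2a had 12.9 to 24.4 CPM in wild-type mice and 132, 31.5 and 38.2 CPM in NPY-tet mice 1 to 3. Its r with Serpina3j was 0.974 (Spearman's rho 0.952), and 0.925 without NPY-tet mice 1 and 2. Serpina3j was chosen for its gap between the groups, and NPY-tet mouse 3 stays in the second r. Both values therefore carry that gap. Sdr9c7 (r = 0.969) and Siah1a (r = 0.955) came next.

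The gene most like Serpina3h was Nfkbiz, which encodes a nuclear IkB protein that is a cofactor of NF-kB. Nfkbiz had 8.25 to 19.7 CPM in wild-type mice and 44.9, 30.5 and 23.4 CPM in NPY-tet mice 1 to 3. Its r was 0.995 with a rho of 1, and 0.996 without wild-type mouse 3 and NPY-tet mouse 1. Il20ra, a receptor chain for cytokines of the interleukin-20 group, followed (r = 0.986), then Terf2 (r = 0.984). For Serpina3c the 3 closest genes were Mmd (r = 0.990), Mrps6 (r = 0.989) and Mrap (r = 0.983), the last an accessory protein of melanocortin receptors that fat cells also make. Mmd had 103 and 91.8 CPM in NPY-tet mice 1 and 2 and 156 to 244 CPM in the other 6 libraries. The genes closest to Serpina3g were Grb7, Lamc3 and Epcam (r = 0.979, 0.979 and 0.969), and to Serpina3i Arhgef37, Klk12 and Gpr63 (r = 0.958, 0.957 and 0.956). For Serpina3m they were Lrrn2, Aebp1 and Trib1 (r = 0.976, 0.965 and 0.957), for Serpina3n Pdia5, Zfp954 and Gdap2 (r = 0.943, 0.934 and 0.931) and for Serpina3f Zbtb8a, Wnt2b and Nxf7 (r = 0.949, 0.949 and 0.938).

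**Figure D4:**
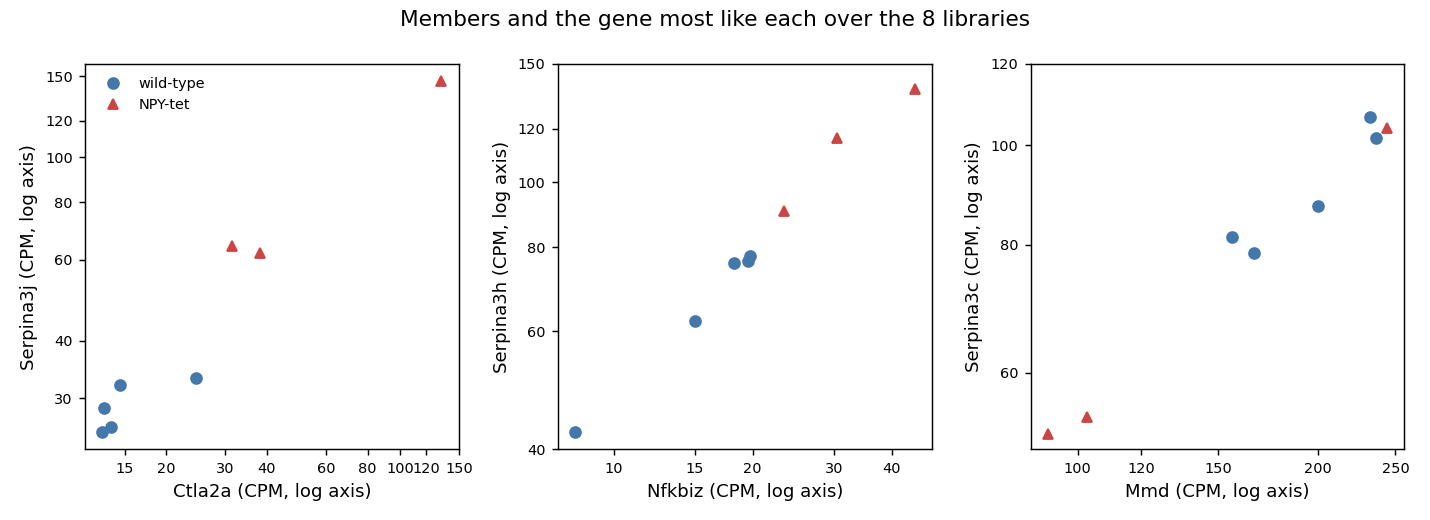
Serpina3j, Serpina3h and Serpina3c (vertical, CPM, log axis) against the gene most like each over the 8 libraries, Ctla2a, Nfkbiz and Mmd (horizontal, CPM, log axis), with circles for 5 wild-type and triangles for 3 NPY-tet mice. Serpina3h and Nfkbiz keep 1 order over all 8 libraries, and in the Serpina3c panel NPY-tet mice 1 and 2 lie apart from the other 6 libraries.

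Promoters are shown because some members, such as Serpina3g and Serpina3i, kept step across the libraries. RefSeq windows of 300 bases, from 250 before to 50 after a transcript start, were matched for 6 of 9 members, of which 5 lie at the RefSeq start of the gene. For Serpina3j the transcript start of the window lies 17 bases from the gene start in GENCODE M21 and 13848 bases from that in RefSeq. This window may therefore not be the promoter of Serpina3j, and a motif missing from it says nothing of that promoter. It was searched for motifs and not aligned with the others. The windows below are those of Serpina3n (chr12:104406458-104406757, plus strand), Serpina3c (chr12:104153823-104154122, minus strand) and Serpina3g (chr12:104235897-104236196, plus strand) on GRCm38.p6, 5′ to 3′ in the direction of transcription. Capitals mark CAGAGCACAGCTT, the longest block held by those 5 windows, and in Serpina3g also the motif TTCNNNGAA.
Serpina3n: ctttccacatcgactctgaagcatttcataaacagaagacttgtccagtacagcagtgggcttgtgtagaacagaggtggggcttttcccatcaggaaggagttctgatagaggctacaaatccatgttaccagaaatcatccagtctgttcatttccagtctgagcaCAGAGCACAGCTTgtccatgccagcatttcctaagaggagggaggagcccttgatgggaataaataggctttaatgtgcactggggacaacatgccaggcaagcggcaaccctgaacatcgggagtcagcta
Serpina3c: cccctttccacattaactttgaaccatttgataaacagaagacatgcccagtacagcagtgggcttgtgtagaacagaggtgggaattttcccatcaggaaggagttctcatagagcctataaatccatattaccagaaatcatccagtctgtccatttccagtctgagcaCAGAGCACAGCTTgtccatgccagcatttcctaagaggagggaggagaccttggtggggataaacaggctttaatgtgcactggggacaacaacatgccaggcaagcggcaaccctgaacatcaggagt
Serpina3g: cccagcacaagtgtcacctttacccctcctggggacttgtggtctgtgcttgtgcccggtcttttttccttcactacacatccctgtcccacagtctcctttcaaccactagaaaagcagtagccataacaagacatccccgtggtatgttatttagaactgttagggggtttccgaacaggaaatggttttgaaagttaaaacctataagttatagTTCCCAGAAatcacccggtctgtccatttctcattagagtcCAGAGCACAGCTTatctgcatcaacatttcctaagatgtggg
The block was picked as shared by the 5 windows at the RefSeq gene start, so its presence in them was set by that choice. The Serpina3j window, which had no part in the choice, did not hold it. Of all 32851 promoter windows, those of members included, 7 held it (0.0213%), counting both strands. These 7 include the 5 windows of the choice. A second Serpina3f window, which starts 89 bases after the first, covers the same block. The windows of Serpina3c and Serpina3n were 93.5% identical, and the other 9 pairs were 74.1% to 84.0% identical. TTCNNNGAA, the palindrome that STAT factors bind, was in the windows of Serpina3f, Serpina3g and Serpina3i and in 8.30% of all windows. The same palindrome with 1 more spacer base was in that of Serpina3i and in 6.95% of all windows. The core of interferon-stimulated response elements (3.44% of windows), a narrow form of the NF-kB site (1.47%) and the glucocorticoid receptor palindrome (0.0091%) were in 0 of the 6. Each was searched as a single fixed pattern. Other forms, such as looser NF-kB sites, were not searched and may stand in the members' windows. The motifs were searched on both strands, and a match or its lack says only which letters stand in these windows.

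Other genes of the pathway were taken from lists of serpins, target proteases and inducers of acute phase genes, and 0 of the 217 tested genes on all lists passed an adjusted p of 0.05 by edgeR. Among 24 serpins of other clades 12 were fitted higher and 12 lower, with a median log2 fold change of -0.03, which ran from -0.38 (without NPY-tet mouse 3) to 0.11 (without NPY-tet mouse 1) as libraries were left out and was -0.39 among rRNA-rich and 0.05 among rRNA-poor libraries. Serpinb6c, the one with the smallest p, had 4.74 ± 2.23 CPM in wild-type skin and 10.9 ± 2.87 CPM in skin of NPY-tet mice (adjusted p = 0.667, edgeR). Of 10 serine proteases of leukocytes and mast cells, the kind of enzyme that Serpina3n inhibits, 9 were fitted lower, with a median of -0.40. This median was -0.70 without NPY-tet mouse 1 and -0.22 without NPY-tet mouse 2, and it was 0.05 among rRNA-rich and -0.72 among rRNA-poor libraries. Mcpt4, a mast cell chymase, had 70.8 ± 6.17 and 48.2 ± 7.32 CPM in the wild-type and NPY-tet groups (adjusted p = 0.535, edgeR). Gzmb, which encodes granzyme B, stood at 0.787 ± 0.378 and 0.183 ± 0.104 CPM (adjusted p = 0.649, edgeR). Of 12 cysteine proteases (cathepsins and legumain, Lgmn), the kind of enzyme that Serpina3g inhibits, 9 were fitted lower, with a median of -0.18. That median was -0.08 among rRNA-rich and -0.37 among rRNA-poor libraries. It was -0.30, -0.12 and -0.12 without NPY-tet mouse 3, NPY-tet mouse 2 or wild-type mouse 4. Ctss stood at 87.2 ± 19.5 and 52.0 ± 11.9 CPM (adjusted p = 0.643, edgeR). Of 9 kallikreins 6 were fitted higher and 3 lower, with a median of 0.20, which was 0.09 without NPY-tet mouse 1 and 0.34 among rRNA-rich and 0.10 among rRNA-poor libraries.

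Genes answering to known inducers of Serpina3 genes were fitted in different directions, and 0 passed the test. Of 16 tested genes of the interleukin-6 and STAT3 acute phase list 10 were fitted higher and 6 lower, with a median of 0.20. That median was 0.04 without NPY-tet mouse 1, -0.02 without NPY-tet mouse 3, 0.15 among rRNA-rich and -0.12 among rRNA-poor libraries. The summed level of the list was 2043 to 2968 CPM in wild-type mice and 1359 to 2572 CPM in NPY-tet mice. Lcn2, an acute phase lipocalin, had 1.57 ± 0.400 and 3.86 ± 3.53 CPM in the wild-type and NPY-tet groups (adjusted p = 0.783, edgeR), and Hp, which encodes haptoglobin, had 1375 ± 428 and 845 ± 521 CPM (adjusted p = 0.796, edgeR). Of 13 tested glucocorticoid response genes 11 were fitted higher, with a median of 0.29 (0.37 among rRNA-rich and 0.16 among rRNA-poor libraries), and their summed level was 1368 to 1617 CPM in wild-type mice and 1661 to 1927 CPM in NPY-tet mice. Fkbp5, a glucocorticoid-induced chaperone, stood at 89.0 ± 14.1 and 136 ± 38.5 CPM (adjusted p = 0.667, edgeR). All 24 interferon-gamma response genes were fitted lower, with a median of -0.88 (-0.91 among rRNA-rich and -1.13 among rRNA-poor libraries), and their summed level was 508 to 735 CPM in wild-type mice and 336 to 426 CPM in NPY-tet mice. Serpina3g, which interferon-gamma induces in macrophages, was itself fitted at 0.54. The part of these lists in the Serpina3 values was not tested.

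Marker levels of cell types that make Serpina3 genes, or that a skin sample can hold, are given as summed CPM per library. Of 10 hepatocyte markers 7 stayed under 1 CPM in every library, among them Fgb at 0 throughout, with Alb at 1.31 to 5.04 CPM, while Cyp2e1, which fat cells also make, reached 257 CPM. Macrophage markers summed to 1079 to 1507 CPM in wild-type and 677 to 1115 CPM in NPY-tet mice. Sebaceous gland markers summed to 3011 to 5740 CPM in wild-type mice (median 4895) and 2106 to 3963 CPM in NPY-tet mice (median 3417). Among the 10 markers 7 were fitted higher and 3 lower, so most went opposite to the sum. Their median log2 fold change was 0.44 (0.40 among rRNA-rich and 0.23 among rRNA-poor libraries). At an unadjusted p under 0.05 by edgeR stood 4 fitted higher and 1 fitted lower, against 5.98% of all tested genes. Of the higher ones, Elovl3 had 29.4 and 55.6 CPM in the wild-type and NPY-tet groups (adjusted p = 0.346, edgeR). Awat1 had 15.6 and 31.5 CPM (adjusted p = 0.346, edgeR) and Scd3 69.4 and 106 CPM (adjusted p = 0.566, edgeR). These 3 were above every wild-type library in all 3 NPY-tet mice, as were 1.81% of all tested genes. They are among the 4 markers with the smallest p. Fibroblast markers, which include collagens, summed to 8114 to 16598 CPM in wild-type mice (median 9154). In NPY-tet mice 1 to 3 they summed to 2432, 12444 and 17738 CPM (median 12444). The lowest and the highest sum were thus both in NPY-tet mice, in mice 1 and 3. Among the 9 fibroblast markers 1 was fitted higher and 8 lower, with a median log2 fold change of -0.12. This median was -0.94 among rRNA-rich and -0.11 among rRNA-poor libraries. Hair matrix and shaft markers summed to 1674, 3473 and 293 CPM in NPY-tet mice 1 to 3. They summed to 8.48 to 237 CPM in wild-type mice 1 to 4 and to 5015 CPM in wild-type mouse 5. Every NPY-tet mouse was thus above all wild-type mice but mouse 5. All 12 hair markers were fitted higher, and 0 stood at an unadjusted p under 0.05 by edgeR. Their median log2 fold change was 0.71 (-0.03 among rRNA-rich and 8.46 among rRNA-poor libraries). Wild-type mouse 5 had both the highest hair sum and the highest wild-type level of Serpina3j, 33.2 CPM. The part of these sums in the members' values was not tested.

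**Figure D5:**
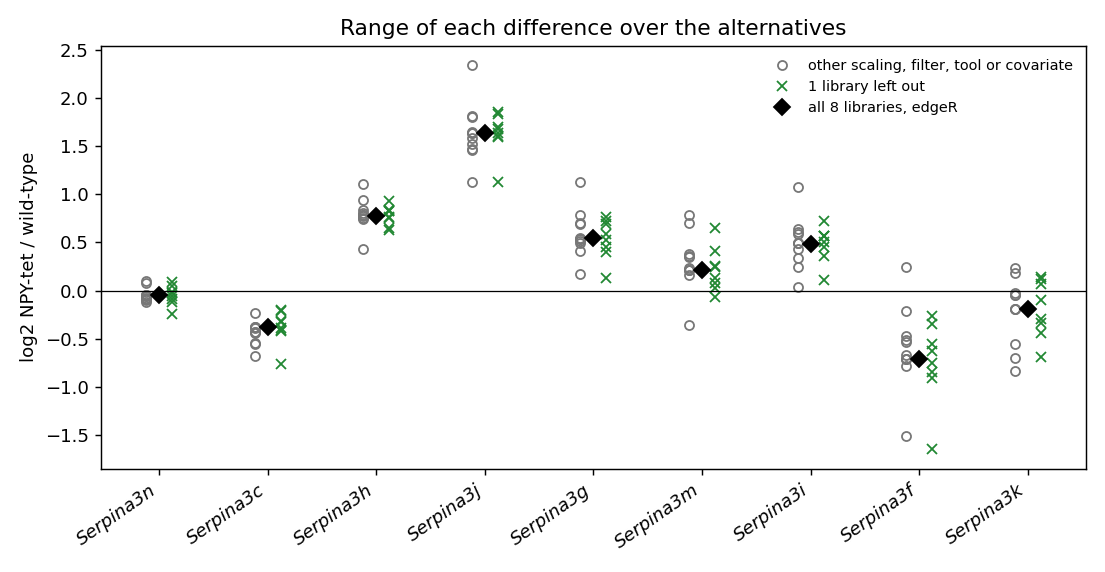
Log2 fold change of NPY-tet over wild-type for each member with all 8 libraries by edgeR (diamond), under other scalings, filters, tools, covariates or library sets (open circles), and with 1 library left out (crosses). Serpina3j stays between 1.13 and 2.35 and Serpina3h between 0.43 and 1.11, whereas Serpina3n, Serpina3k, Serpina3m and Serpina3f have values on both sides of 0.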

How the data were processed

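Libraries from whole skin were made after poly-T selection without keeping strand, per the labels' protocols. The authors deposited whole-number counts for each Ensembl gene, with a column for every mouse. The deposited FPKM equal those counts divided by the gene length in the file and an effective library size constant within a library. The mm39 build, featureCounts 1.5.0-p3, HISAT2 2.0.5, CASAVA and DESeq2 1.20.0 are named per the submitters' processing notes, without roles or annotation release. Columns were matched to samples by the mouse number in the titles. For samples 3 to 8 the library name in the description has a number higher by 1 with the same genotype, so the identity of the mouse with a given replicate number is uncertain.

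Counts of all 56748 genes were fitted with edgeR 4.0.16 in R 4.3.3 (filterByExpr by group, TMM, robust quasi-likelihood F-test, two-sided, genotype as the only term), with Benjamini-Hochberg adjustment over 18495 genes. The SE is the size of the log2 fold change over the square root of F. CPM are TMM-scaled. Alternatives were total counts or DESeq2 size factors, no filter, DESeq2 1.42.0, limma 3.58.1 with voom weights or on log2 FPKM with pseudocounts of 1 and 0.1, the replicate number as a block, a term for libraries rich in ribosomal RNA (over 1% of counts) or separate fits of each kind, and each library left out. The fits were tested on simulated data. Members, gene lists, alternatives and library sets were chosen with earlier results of these data known.

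Named genes are the members, for each member averaging at least 1 CPM the 3 protein-coding genes with the highest Pearson r of log2 CPM (prior count 2), and examples of up to 4 genes per list with the smallest p. Loops were located by a script in the GENCODE M21 coding sequences from the conserved hinge to the strand after it, and aligned codon by codon (most matching bases less 2 per unpaired codon), other sequences by pairwise alignment in Biopython 1.88. Identity was taken from nucleotides, since protein sequences were not used here. Sequences are on GRCm38, the files' coordinates on mm39.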

Additional observations from a re-analysis of the deposited data

Results flagged for a closer look

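A single wild-type mouse stood far from the other 4 in the summed level of 3 gene lists, by Dixon's test for a group of 5, which chance meets in about 1 in 20 groups. The test was run on the 9 members and on every list but the sex-linked check (22 lists with it), so some flags can be met by chance. Cysteine cathepsins with legumain summed to 2382 CPM in wild-type mouse 2, against 2683 to 2804 CPM in the others. T cell markers summed to 91.8 CPM in wild-type mouse 4, against 43.5 to 51.8 CPM in the others. Hair matrix and shaft markers summed to 5015 CPM in wild-type mouse 5, against 8.48 to 237 CPM in the others. These mice had 25.4, 28.6 and 33.2 CPM of Serpina3j, of which 25.4 and 33.2 CPM are the lowest and the highest wild-type values. None of the 9 members had such a mouse in the wild-type group. The NPY-tet group of 3 mice was too small to examine.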

How the results depend on the processing

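The edgeR count of genes past the adjusted p of 0.05 was 1. It was 2 with total counts as the only scaling, with limma on log2 FPKM at either pseudocount, and with the replicate block, 3 with limma-voom, 11 with ribosomal RNA content as a covariate, 21 with no filter and 68 with DESeq2. It was 332 among the rRNA-rich libraries and 227 among the rRNA-poor ones, where 1 group is a single mouse assumed to vary like the other group, and 1 to 8 with each library left out, the 8 without NPY-tet mouse 3. Of the list genes 0 were called, and 7 with no filter, 13 with DESeq2, 13 among the rRNA-rich and 19 among the rRNA-poor libraries, and 0 with each library left out.

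The log2 fold change of Serpina3j, 1.64, was 2.35 among the rRNA-rich and 1.13 among the rRNA-poor libraries and 1.13 to 1.86 with each library left out. It was 1.59 with the replicate block. Its sign says nothing of stability, since the gene was chosen for it. Of the 4 alternatives that called it, 2 were the rRNA-rich and rRNA-poor sets and the others DESeq2 and the fit with ribosomal RNA content. Serpina3c, Serpina3g, Serpina3h and Serpina3i kept their sign in 19 of 19 alternatives, Serpina3f in 18, Serpina3m in 17, Serpina3n in 15 and Serpina3k in 14. The alternatives reuse the same libraries, so these counts are no independent check of stability. The groups of Serpina3h did not overlap, so leaving out 1 library could hardly turn its sign. Serpina3g and Serpina3i fell to 0.13 and 0.11 without NPY-tet mouse 1, and to 0.17 and 0.04 among the rRNA-poor libraries. Scaling by total counts moved the median of all genes by 0.17 on the log2 scale. The cause of these changes was not tested. Deviations from the group means correlated at -0.04, -0.11 and 0.30 between the mice of replicate numbers 1 to 3. These values cannot decide whether equal numbers mark paired mice, since numbers 2 and 3 set an rRNA-rich library against an rRNA-poor one. Counts of 4 to 72 per library limit Serpina3f and Serpina3k.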
